A study of Mus musculus with 12 samples.

Results

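The 4 transcripts described here are uc009vev.1, uc009vew.1, uc009vfb.1 and uc012hdk.1, followed by ID in ribosome profiling libraries of mouse embryonic stem cells. They are 4 of the 61396 transcript rows in each table of counts, and 46 of those rows have IDs with the same beginnings. They were chosen on measured values. uc009vev.1 reached 82.7% of the either-strand counts assigned to transcripts in a library, uc009vew.1 reached 81.0% of the sense counts, and uc012hdk.1 reached 96.1% of the antisense counts. Each of these ranked first in its column in all 12 libraries. The name "dominant" did not hold for uc009vfb.1, which never exceeded 0.353% of the either-strand counts and was taken for its ID and for its low count in one group. The only other row above 10% of a column in any library, uc008spx.1, reached 10.9% of the either-strand counts and is not among the 4, and the next row in that column, uc007mzp.1, reached 5.09%.

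The cells were of the V6.5 line, either wild type (WT) or Mettl14 -/-, that is without Mettl14 (KO). METTL14 is a subunit of the complex that methylates adenosines in mRNA. Unheated cells (noHS) were compared with cells heated at 42 °C for 30 min (HS) and with heated cells that were returned to 37 °C for 1 h (recovery). Each of the 3 conditions in each genotype has 2 libraries, which makes 6 groups. All cells were grown on gelatin in medium with LIF and inhibitors of GSK3 and MEK1, and all lysates held cycloheximide. How many knockout clones were used is not given in the sources used here, so genotype and clone cannot be told apart. Stem cell markers and the loss of Mettl14 were not checked, because 0 of the 61396 IDs matched a gene in the table of mouse genes used here. For the same reason the genes, genome positions, lengths and sequences of the 4 transcripts are not stated, and whether they are mitochondrial was not examined.

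Ribosome profiling sequences the short stretches of mRNA that a ribosome shields from nuclease, so the count of a transcript follows the ribosomes on all of its copies. Fragments of other RNAs of similar size can enter such libraries too. Messenger RNA levels were not measured alongside, so fewer ribosomes per copy and fewer copies cannot be told apart. Nor can either be told apart from a change in such other fragments. Each table counts every transcript 3 times: with reads of either strand, with reads of the transcript's own strand (sense) and with reads of the opposite strand (antisense). A read that fits more than 1 transcript is called ambiguous and is credited to none. Where 2 transcripts overlap on opposite strands, the either-strand column therefore loses the shared reads, whereas each stranded column can keep them.

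Libraries held 679360 to 2084034 reads, of which 36.8% to 55.5% were unmapped and 1.26% to 8.75% were assigned in the either-strand column. Levels below are counts per 1000000 reads of the library, mapped or not (CPM), and are not corrected for transcript length, so they are compared between groups and not between transcripts. A floor of 3 counts corresponded to 1.44 to 4.42 CPM. The KO recovery libraries stood apart, with 1.27% and 1.26% of reads assigned, a share that counts uc009vev.1 itself. Results that involve KO recovery rest on these 2 libraries.

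The sense counts of uc009vew.1 and the antisense counts of uc012hdk.1 matched within a few percent in every library. WT noHS had 54711 sense counts of uc009vew.1 in replicate 1 and 110546 in replicate 2, beside 55190 and 111091 antisense counts of uc012hdk.1. In KO noHS the sense counts were 161405 and 226785 and the antisense counts 162913 and 227768. The ratio of the second to the first ran from 0.996 to 1.02 over the 12 libraries. WT HS had 261127 and 18547 sense counts, beside 266346 and 18706 antisense counts. KO HS had 103221 and 107048 sense counts, beside 103867 and 107899 antisense counts. The match thus held while the counts themselves differed between replicates of WT HS by a factor of 6.01 in CPM. WT recovery had 149174 and 90465 sense counts, beside 150184 and 90141 antisense counts. KO recovery had 5580 and 1839 sense counts, beside 5561 and 1836 antisense counts, the lowest of the 6 groups. The antisense count of uc012hdk.1 was the larger in 9 libraries and the smaller in 3.

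The reverse pair of columns matched as closely at lower counts. Antisense counts of uc009vew.1 were between 465 and 34549 per library, and its ratio to the sense counts of uc012hdk.1 ran from 1 to 1.03. WT noHS replicate 2 was the highest library, with 34549 and 34489 counts, against 1905 and 1897 in replicate 1 of that group. In 3 libraries the counts were equal, among them KO recovery with 3409 in replicate 1 and 465 in replicate 2. Among all rows, each was the only one whose opposite-strand counts lay within 10% of the other's in every library with at least 100 counts. uc009vev.1 had no such partner in either stranded column, and uc009vfb.1 had too few libraries with 100 counts for the search.

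**Figure D1:**
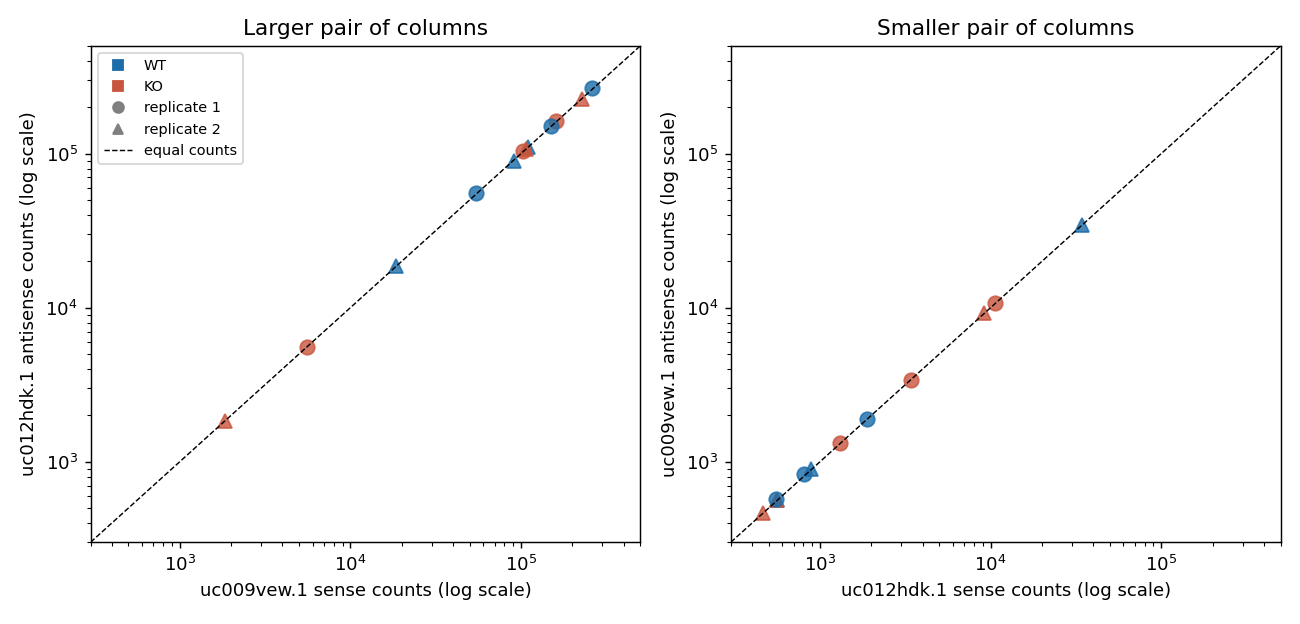
Each point is a library. The left panel plots uc012hdk.1 antisense counts against uc009vew.1 sense counts, and the right panel plots uc009vew.1 antisense counts against uc012hdk.1 sense counts, on log axes with a dashed line at equal counts. All 12 libraries lie on or next to the line in both panels, from 1839 to 261127 counts on the left horizontal axis and from 465 to 34489 on the right.

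Nearly all stranded counts of these transcripts were missing from the either-strand column. Per library, the either-strand count of uc009vew.1 was 0.0474% to 0.795% of its sense and antisense counts together, and that of uc012hdk.1 was 0.0869% to 2.08%. The counts left out, stranded minus either-strand, summed to 1351985 for uc009vew.1 and 1352016 for uc012hdk.1. They were identical in 8 libraries and differed by 3 to 17 counts in the other 4. By contrast, uc009vev.1 lost 1 count in all and uc009vfb.1 lost 0, so their either-strand counts hold all of their stranded reads but 1. Transcripts on opposite strands of 1 stretch of genome would be counted in this way. The positions of the transcripts were not used here, so an overlap was not tested.

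The counts left out of uc009vew.1 were a large part of the reads called ambiguous. They equalled 23.3% to 93.5% of the ambiguous reads of the either-strand column, and over 50% in 10 libraries. In WT HS replicate 1 they came to 261592, or 12.6% of all reads, and in KO recovery replicate 2 to 2299, or 0.338% of all reads. The count left out exceeded all assigned either-strand counts together in 9 libraries, with the largest ratio, 3.60, in KO HS replicate 2. The remaining ambiguous reads ranged from 0.831% to 2.60% of reads. The part of the ambiguous reads that equals the counts left out of uc009vew.1 thus spanned a wider range than the rest.

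**Figure D2:**
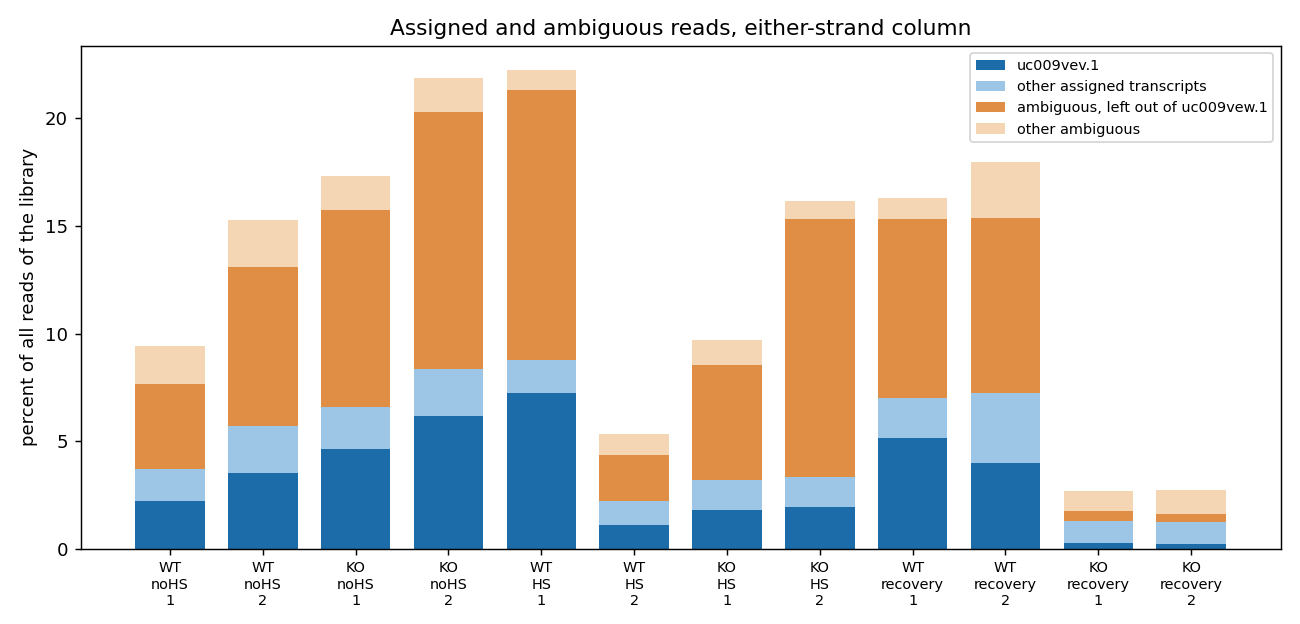
Stacked bars show, as percent of all reads of each library, the either-strand counts of uc009vev.1, all other assigned counts, the ambiguous reads equal to the counts left out of uc009vew.1, and all other ambiguous reads. The counts left out of uc009vew.1 range from 0.338% to 12.6% of reads, and the other ambiguous reads from 0.831% to 2.60%.

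uc009vev.1, the largest transcript of the either-strand column, was lowest in KO recovery. Its either-strand counts were 31796 and 68476 in WT noHS, which is 22162 and 34995 CPM. KO noHS had 86530 and 120966 counts, or 46156 and 61495 CPM, above both WT noHS libraries. After heat, WT HS had 150911 and 9694 counts, or 72413 and 10904 CPM, so its replicates lay on both sides of WT noHS. KO HS had 35159 and 17590 counts, or 18072 and 19595 CPM, below both KO noHS libraries. WT recovery had 92689 and 44492 counts, or 51632 and 39823 CPM. KO recovery had 4530 and 1401 counts, or 2547 and 2062 CPM, below every other library.

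The group means of uc009vev.1 in CPM ran in the order KO noHS (53825 ± 10846; SD, n = 2), WT recovery (45727 ± 8350), WT HS (41658 ± 43494), WT noHS (28579 ± 9074), KO HS (18834 ± 1077) and KO recovery (2305 ± 343). Neighbours in this order overlapped down to WT noHS. WT noHS did not overlap KO HS, and KO HS did not overlap KO recovery. The number of all transcripts whose libraries separate in this way was not counted, for these or for the other groups compared here. Groups of 2 libraries can separate by chance, so statements that libraries lie above or below others describe and are not a test.

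**Figure D3:**
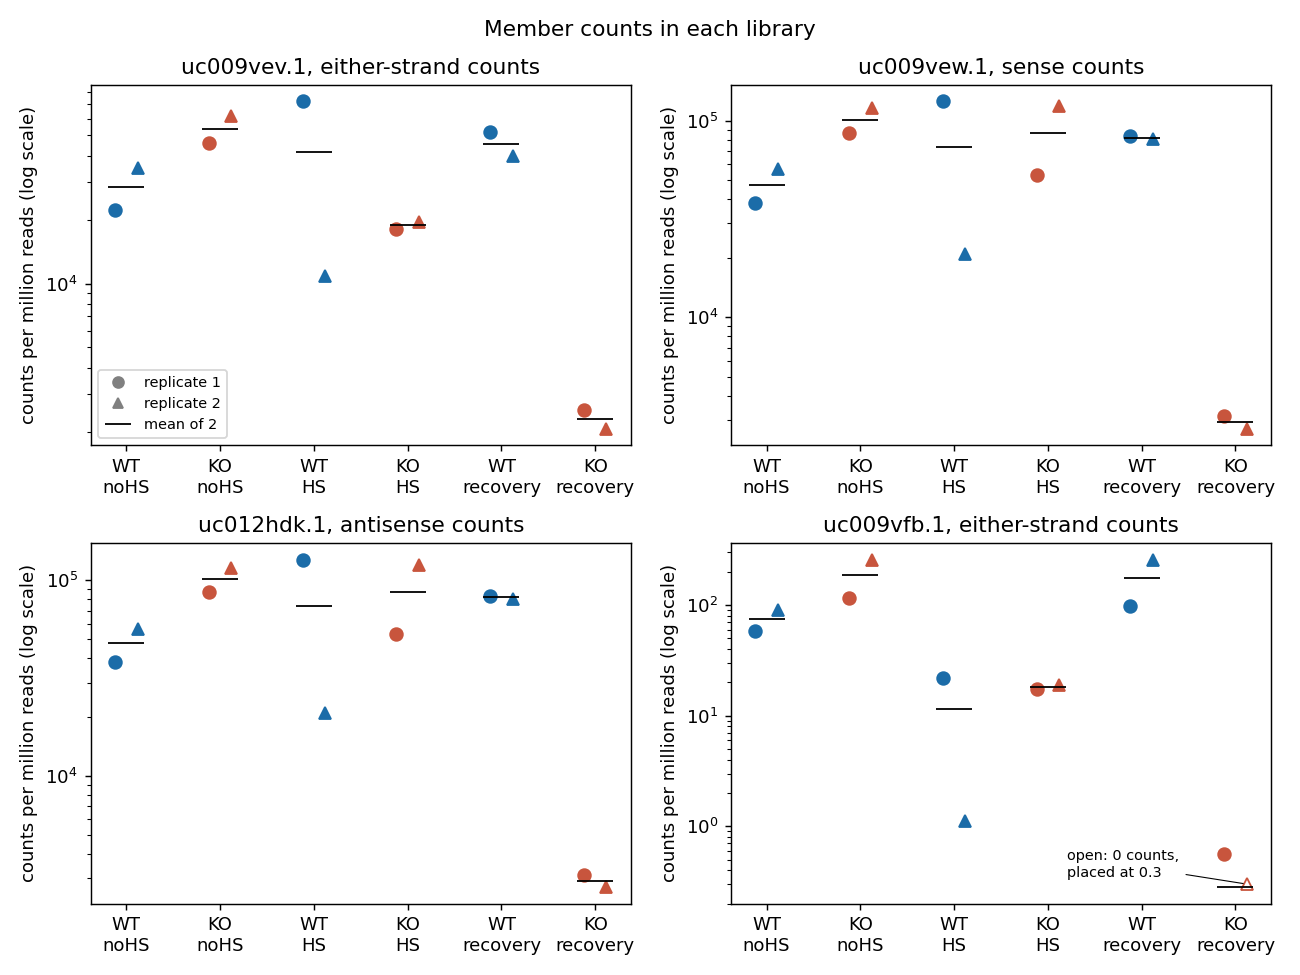
CPM (log scale) of each transcript in the 12 libraries, in the column that the text follows for it, with WT in blue and KO in red and a bar at the mean of 2 replicates. KO recovery is the lowest group in all 4 panels, and the WT HS replicates differ 6.64-fold for uc009vev.1. The open triangle marks uc009vfb.1 at 0 counts in KO recovery replicate 2 and has no position on a log scale.

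In edgeR's quasi-likelihood test, uc009vev.1 fell in KO recovery relative to WT recovery. The log2 difference was −4.31 ± 1.15 (SE), with a Benjamini-Hochberg adjusted p = 0.0480 over 618 transcripts. Of those 618 transcripts, 33 passed the threshold of 0.05 in that comparison, which is 5.34%, all of them lower, and the median log2 difference was −0.10. Against KO noHS the difference was −4.55 ± 1.16 (SE) with an edgeR adjusted p = 0.0504, which misses the threshold, in a comparison where 2.75% of transcripts passed and the median was −0.16. The KO minus WT difference between the recovery responses was −5.22 ± 1.51 (SE), with an edgeR adjusted p = 0.103 and 1.62% of transcripts called. Both p-values next to 0.05 changed side under other settings. The recovery difference between genotypes passed under 6 of 20 alternatives, with edgeR or DESeq2 adjusted p from 4.75e-06 to 0.394, and failed without any library other than the WT HS libraries or WT recovery replicate 1. The difference within KO passed under 9 of 20, with adjusted p from 6.37e-07 to 0.390, and on sense counts alone it was −4.69 with an edgeR adjusted p = 0.0231.

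No heat shock contrast of the either-strand counts of uc009vev.1 passed in edgeR. The log2 difference of HS from noHS was 0.54 ± 1.01 (SE) in WT and −1.51 ± 1.03 in KO, with edgeR adjusted p = 0.798 and 0.511. Without WT HS replicate 1 the WT difference was −1.39, so its sign rests on that library. WT recovery minus WT noHS was 0.68 ± 1.01 (SE; edgeR adjusted p = 0.995). KO minus WT was 0.91 in noHS (edgeR adjusted p = 0.899) and −1.15 in HS (edgeR adjusted p = 0.940). In these 5 comparisons 0% of the 618 transcripts passed with edgeR, while 16 to 168 had an unadjusted p under 0.05 and DESeq2 called 0 to 47.

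The sense counts of uc009vew.1, the largest transcript of the sense column, also fell in KO recovery. In CPM, WT noHS had 38134 and 56495, KO noHS 86094 and 115289, and WT recovery 83097 and 80971. WT HS had 125299 and 20861, and KO HS 53058 and 119252, so that the replicates of each heated group were 6.01-fold and 2.25-fold apart. KO recovery had 3138 and 2707, below the lowest of the other libraries. The means ran from KO noHS (100692 ± 20644; SD, n = 2) through KO HS (86155 ± 46806), WT recovery (82034 ± 1503), WT HS (73080 ± 73849) and WT noHS (47314 ± 12983) to KO recovery (2922 ± 304). All neighbours in this order overlapped except WT noHS and KO recovery, a separation that was not counted over all transcripts.

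The fall of uc009vew.1 passed the edgeR test in all 3 contrasts that involve KO recovery. Relative to KO noHS the log2 difference in sense counts was −5.11 ± 1.19 (SE; edgeR adjusted p = 0.0231 over 537 transcripts), where 5.96% of transcripts passed and the median was −1.42. Relative to WT recovery it was −4.81 ± 1.17 (SE; edgeR adjusted p = 0.0207), where 9.12% passed and the median was −1.53. The KO response from noHS to recovery differed from the WT response by −5.90 ± 1.52 on the log2 scale (SE; edgeR adjusted p = 0.0427), where 3.91% passed and the median was −1.44. All transcripts called in these 3 sense comparisons were lower. Without KO recovery replicate 1 or replicate 2 the adjusted p rose to between 0.218 and 0.363 in these contrasts, while the log2 differences were −6.01 to −4.71, and without the filter on low counts it rose to between 0.517 and 1.00. Without KO noHS replicate 2 the first contrast had an edgeR adjusted p = 0.0687. The difference between responses also missed the threshold without any 1 of the 4 noHS libraries, with p from 0.0878 to 0.217. Over 19 alternatives the 3 contrasts passed in 15, 16 and 9, with adjusted p from 1.39e-08 to 0.581, from 6.33e-08 to 0.517 and from 3.73e-07 to 1.00.

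Heat alone gave no called difference of uc009vew.1. HS minus noHS was 0.63 in WT (edgeR adjusted p = 0.759) and −0.22 in KO (edgeR adjusted p = 0.916). WT recovery minus WT noHS was 0.79, with an edgeR adjusted p = 1, although both WT recovery libraries lay above both WT noHS libraries. KO minus WT was 1.09 in noHS (edgeR adjusted p = 0.877) and 0.24 in HS (edgeR adjusted p = 1). In these 5 comparisons 0% of the 537 transcripts passed with edgeR, 8 to 179 had an unadjusted p under 0.05, and DESeq2 called 0 to 46. The WT heat difference turned to −1.18 without WT HS replicate 1.

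The antisense counts of uc012hdk.1 gave nearly the same log2 differences, as the matching counts require, and they are no second measurement. KO recovery minus KO noHS was −5.12 ± 1.43 (SE; edgeR adjusted p = 0.0393 over 258 transcripts), where 6.2% of transcripts passed, 8 lower and 8 higher, and the median was 1.00. KO recovery minus WT recovery was −4.82 ± 1.41 (SE; edgeR adjusted p = 0.0653; 2.71% passed), and the difference between responses was −5.91 ± 1.82 (SE; edgeR adjusted p = 0.0826; 3.1% passed). The same differences in size were thus called in all 3 contrasts among the sense counts and in 1 among the antisense counts, where the SE was larger and fewer transcripts were tested. The call against KO noHS was lost without either noHS or either recovery library of the KO, with edgeR adjusted p from 0.104 to 0.440, without any KO HS or WT recovery library (0.0835 to 0.116), and also with TMM scaling (adjusted p = 0.107). Over all 19 alternatives its adjusted p ran from 1.2e-11 to 1. HS minus noHS was 0.64 in WT and −0.22 in KO, with edgeR adjusted p = 0.825 and 0.979, where 0.388% and 0.775% of transcripts passed. WT recovery minus WT noHS was 0.79 (edgeR adjusted p = 0.936; 0.775% passed). KO minus WT was 1.09 in noHS and 0.22 in HS, with edgeR adjusted p = 0.970 and 0.974. In these last comparisons 0% passed, 15 and 17 transcripts had an unadjusted p under 0.05, and DESeq2 called 0.

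The few either-strand counts of uc009vew.1 and uc012hdk.1 are the part of their stranded counts outside the counts left out, and they do not match between the transcripts. uc009vew.1 had 92 and 321 such counts in WT noHS, 271 and 883 in KO noHS, 406 and 726 in WT recovery, and 35 and 5 in KO recovery. uc012hdk.1 had 563 and 806 in WT noHS, 1709 and 1772 in KO noHS, 1396 and 387 in WT recovery, and 16 and 2 in KO recovery. For both transcripts the KO recovery libraries lay below the libraries of those 3 groups. In HS the counts were 361 and 24 (WT) and 247 and 51 (KO) for uc009vew.1, and 5557 and 183 (WT) and 886 and 900 (KO) for uc012hdk.1.

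These residual counts fell in KO recovery too, where uc012hdk.1 had 16 and 2 counts, the latter below the floor of 3 counts. The contrasts that follow called 2.75%, 5.34% and 1.62% of the 618 either-strand transcripts, in the order given and all lower. KO recovery minus KO noHS was −4.40 ± 1.07 (SE) for uc009vew.1 and −7.13 ± 1.24 for uc012hdk.1, with edgeR adjusted p = 0.0485 and 0.0125. KO recovery minus WT recovery was −4.96 ± 1.10 and −6.44 ± 1.21 (SE), with edgeR adjusted p = 0.0300 and 0.0218. The difference between the responses was −6.34 ± 1.43 and −7.62 ± 1.5 (SE), with edgeR adjusted p = 0.0423 and 0.0391. Each of these 6 calls was lost without KO recovery replicate 1 and without KO recovery replicate 2, with adjusted p from 0.101 to 0.390. The difference between the responses was also lost for both transcripts without WT noHS replicate 1 (edgeR adjusted p = 0.238 and 0.233) or replicate 2 (0.0858 for each). For uc009vew.1, leaving out KO noHS replicate 2 ended the call of that difference (edgeR adjusted p = 0.103) and of KO recovery minus KO noHS (0.161), and leaving out WT noHS replicate 2 ended the latter (0.0553).

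uc009vfb.1 was a small transcript by count and nearly absent from KO recovery. Its either-strand counts were 84 and 177 in WT noHS, 219 and 508 in KO noHS, 177 and 286 in WT recovery, and 1 and 0 in KO recovery. The 0 in KO recovery replicate 2 allows a level of up to 4.42 CPM. The levels in CPM were 58.5 and 90.5 in WT noHS, 117 and 258 in KO noHS, and 98.6 and 256 in WT recovery. Both WT recovery libraries lay above both WT noHS libraries, and both KO recovery libraries had fewer counts than any library outside KO recovery except WT HS replicate 2, which also had 1 count. The ratio of KO noHS to KO recovery was 465, and that of WT recovery to KO recovery was 391, each from counts and reads pooled over the group. Both ratios rest on 1 count in KO recovery. Without KO noHS replicate 2 the first was 287, and without WT recovery replicate 1 or replicate 2 the second was 629 or 242. Without KO recovery replicate 1 the first became at least 42.9-fold and the second at least 36.0-fold, taking 3 counts for the KO recovery group. These contrasts took part in the choice of uc009vfb.1 and are given without a test.

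In the heated groups uc009vfb.1 was lower than in the unheated ones in every library. WT HS had 46 and 1 counts, or 22.1 and 1.12 CPM, and KO HS had 34 and 17, or 17.5 and 18.9 CPM. With counts and reads pooled over each group, the level was 4.87 times higher in WT noHS than in WT HS (95% Clopper-Pearson interval 3.56 to 6.79, counting error only) and 10.5 times higher in KO noHS than in KO HS (7.94 to 14.3). The first ratio was 68.4 without WT HS replicate 1, and the second was 6.51 without KO noHS replicate 2. In edgeR, HS minus noHS did not pass the test, with −2.60 ± 0.95 (SE; adjusted p = 0.105) in WT and −3.36 ± 0.97 (SE; adjusted p = 0.354) in KO. The other contrasts were 1.25 for WT recovery minus WT noHS (edgeR adjusted p = 0.995), 1.33 for KO minus WT in noHS (adjusted p = 0.865) and 0.57 for KO minus WT in HS (adjusted p = 0.988). The share of transcripts called in these 5 comparisons is the 0% given for uc009vev.1.

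The share of assigned reads was also lowest in KO recovery, and that of unmapped reads was highest in its replicate 1 only. Unmapped reads were 55.5% and 49.5% there, against 36.8% to 50.1% in the other 10 libraries, and assigned reads were 1.27% and 1.26%, against 2.20% to 8.75%. Assigned reads include those of uc009vev.1, which held 20.1% and 16.3% of them in KO recovery and 49.6% to 82.7% in the others. The part of these library measures in the results was not tested. With mapped reads as the scale, KO recovery minus KO noHS of uc009vev.1 was −4.18, and with the assigned counts outside the 4 transcripts as the scale it was −3.61. That last scaling moved the median log2 difference of the 618 transcripts from −0.16 to 0.72.

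The strand balance of uc009vev.1 and uc009vew.1 differed between libraries. Sense counts made up 97.4% to 99.8% of the stranded counts of uc009vev.1 in 9 libraries, and 93.8% to 99.7% of those of uc009vew.1 in the same 9. In WT noHS replicate 2 the sense shares were 86.9% for uc009vev.1 and 76.2% for uc009vew.1. In KO recovery they were 84.9% and 93.4% for uc009vev.1, and 62.1% and 79.8% for uc009vew.1. The 3 libraries with low shares were thus the same for both transcripts. The mean antisense level of both was higher in KO recovery than in WT recovery. That log2 difference was 1.39 for uc009vev.1 and 1.21 for uc009vew.1 (edgeR adjusted p = 0.402 and 0.534; 2.71% of 258 passed). KO recovery minus KO noHS was −2.12 and −2.00 (edgeR adjusted p = 0.152 and 0.227; 6.2% passed). For uc012hdk.1, most of whose counts are antisense, the sense share ran from 0.303% to 38.0%. For uc009vfb.1 it ran from 64.7% to 100%, on far fewer counts.

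**Figure D4:**
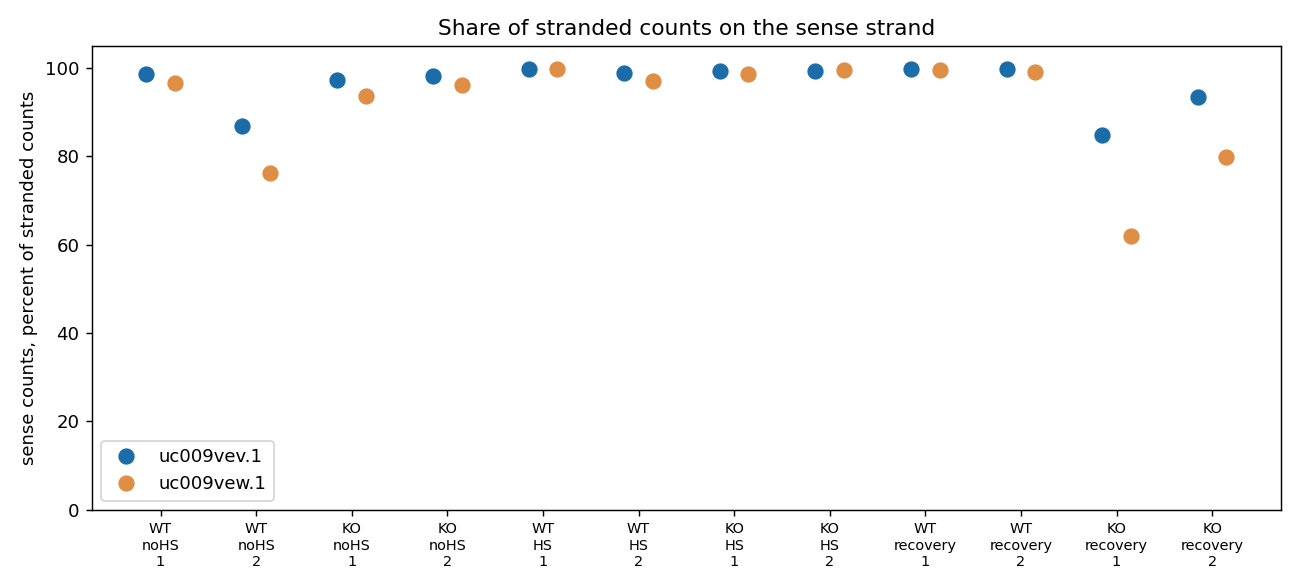
Sense counts as percent of sense plus antisense counts, for uc009vev.1 and uc009vew.1 in each library. WT noHS replicate 2 and both KO recovery libraries are lowest for both transcripts, at 62.1% to 79.8% for uc009vew.1 and 84.9% to 93.4% for uc009vev.1.

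Antisense counts of uc009vev.1 were lower after heat than in unheated WT cells, but by an amount that 1 library sets. They were 420 and 8955 in WT noHS, 236 and 113 in WT HS, and 150 and 130 in WT recovery. In KO they were 2293 and 2069 in noHS, 242 and 119 in HS, and 685 and 92 in recovery. WT HS minus WT noHS was −4.34 ± 0.94 (SE; edgeR adjusted p = 0.0348) and WT recovery minus WT noHS was −4.61 ± 0.95 (SE; edgeR adjusted p = 0.0204), in the comparisons with 0.388% and 0.775% of 258 transcripts called. Without WT noHS replicate 2, the library with 8955 counts, the differences were −1.29 and −1.55, with edgeR adjusted p = 0.527 and 0.721. These contrasts were not planned, and the opposite-strand counts of the matching pair missed the threshold in both. Antisense counts of uc009vew.1 gave −4.21 and −4.08 (edgeR adjusted p = 0.0709 and 0.0601). Sense counts of uc012hdk.1 gave −4.22 and −4.10 (edgeR adjusted p = 0.0642 and 0.695; 0% of 537 passed). In KO, HS minus noHS of the uc009vev.1 antisense counts was −3.15 ± 0.89 (SE; edgeR adjusted p = 0.120). Leaving out any library of the HS groups or of recovery ended the first call as well, with edgeR adjusted p from 0.0940 to 0.341, and leaving out any library of KO HS or of recovery ended the second, with p from 0.0876 to 0.733.

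The ratio of the 2 large sense counts within a library needs no scaling between libraries. The sense count of uc009vev.1 divided by that of uc009vew.1 was 0.490 to 0.620 in the 8 libraries of WT and KO noHS, WT HS and WT recovery. In KO HS it was 0.338 and 0.163, below all other libraries, and in KO recovery it was 0.689 and 0.712, above all others. The KO HS sense counts were 34918 and 17471 for uc009vev.1, beside 103221 and 107048 for uc009vew.1. This ratio was looked at after the values were known and is given without a test.

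**Figure D5:**
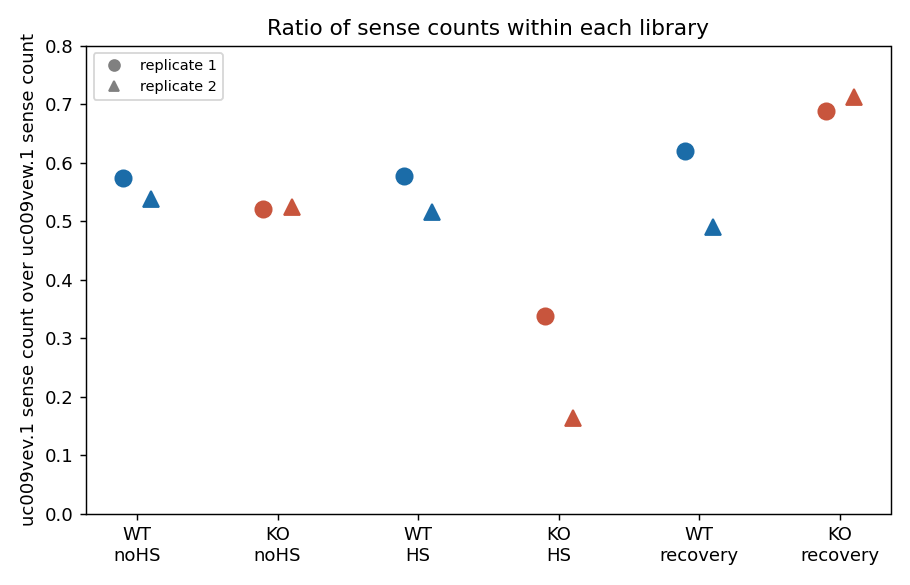
Sense count of uc009vev.1 divided by sense count of uc009vew.1 in each library, with WT in blue and KO in red. The KO HS libraries are at 0.338 and 0.163 and the KO recovery libraries at 0.689 and 0.712, while the other 8 libraries lie between 0.490 and 0.620.

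Among the 46 rows with similar IDs, 8 had at least 100 counts in some column over the 12 libraries, and these 8 lie within 10 consecutive rows of the tables. Besides the 4 transcripts they are uc009vex.2, uc009vey.1, uc012hdm.1 and uc009vfc.1. uc009vey.1 had 8585 either-strand counts in all, uc009vfc.1 6533, uc012hdm.1 4422 and uc009vex.2 3477. Their KO recovery counts were 16 and 10 for uc009vey.1, 12 and 9 for uc009vfc.1, 22 and 5 for uc012hdm.1, and 31 and 0 for uc009vex.2. In WT recovery the same rows had 978 and 1485, 685 and 1128, 347 and 746, and 459 and 682 counts. How many of all transcripts were likewise lower in both KO recovery libraries was not counted. The median log2 difference of KO recovery from WT recovery was −0.10 over the 618 either-strand transcripts tested. uc012hdm.1 and uc009vfc.1 lost the same counts from the either-strand column, 4760 in all and equal in each of the 12 libraries, whereas those of uc009vew.1 and uc012hdk.1 were equal in 8.

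The rows whose levels followed each transcript most closely were partly these neighbours. Over 12 libraries, in log2 of CPM plus 1, uc009vfb.1 was most like uc012hdm.1 (Pearson r = 0.976, Spearman 0.951), uc009vfc.1 (0.960, Spearman 0.944) and uc009vey.1 (0.939, Spearman 0.930), among rows with a median r of 0.250. Without the KO recovery libraries, r was 0.953, 0.944 and 0.906 over 10 libraries. uc009vev.1 was most like uc012hdk.1 (r = 0.940, Spearman 0.748), uc007deu.1 (0.933, Spearman 0.790) and uc012fsd.1 (0.919, Spearman 0.669), with a median of 0.127 over all rows. By Spearman, and also without the KO recovery libraries, 0 of these 3 were among its 3 most alike rows, and without WT HS replicate 1 only 1 was. In the sense column uc009vew.1 was most like uc009vev.1 (r = 0.956, Spearman 0.832), uc012fsd.1 (0.934, Spearman 0.753) and uc008spx.1 (0.928, Spearman 0.762). Without KO recovery r was 0.626 to 0.753 for the 3 rows named for uc009vev.1 and 0.644 to 0.844 for the 3 named for uc009vew.1. In the antisense column uc012hdk.1 was most like uc009vfc.1 (r = 0.837, Spearman 0.545), uc012hdm.1 (0.799, Spearman 0.622) and uc009vfb.1 (0.788, Spearman 0.514), and r without KO recovery was 0.588 to 0.633. Of these 3 rows, 1 stayed among its 3 most alike without KO recovery, and 1 without KO recovery replicate 1. The libraries share depth and scale, so these values describe and carry no p.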

How the data were processed

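The authors deposited raw counts per transcript, 1 table for each of 12 libraries, in the layout of STAR's gene counts: either-strand, sense and antisense columns plus 4 rows of uncounted reads. STAR, DESeq2 and the build mm10 are named in the submitters' processing notes, without version or role. Settings for trimming and alignment: not given in the sources used here. The series' design text calls the 2 libraries of a group biological replicates. The 4 transcripts and all lists and tests were chosen with earlier results of these data known. Rows named are the 4, the 3 rows most like each, partner rows and ID neighbours with at least 100 counts.

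Counts of each column were tested with edgeR 4.0.16 (R 4.3.3) by quasi-likelihood, after filterByExpr with a minimum count of 10, in 1 fit with 6 group coefficients. That fit has 6 residual degrees of freedom. The library size was all reads of the table, because the 4 transcripts make up a large and uneven share of the assigned counts, with no further factor. P-values were adjusted by the Benjamini-Hochberg method over all transcripts tested in the column (618 either-strand, 537 sense, 258 antisense), called below 0.05. All 4 transcripts passed the filter in each column. Alternatives were TMM, DESeq2 1.42.0 size factors and its Wald test, other library sizes, no filter, a replicate block and leaving out each library, where a lone library is taken to vary like the other groups. Scripts were tested on simulated counts that varied less between replicates than these data, so that test does not give the power here. Intervals, and the floor of 3 counts, cover counting error alone, as reads amplified by PCR are not separate molecules.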

Additional observations from a re-analysis of the deposited data

Results flagged for a closer look

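The genotype difference in the response from noHS to recovery passed the edgeR threshold for 4 tested counts. They are not independent, since uc009vew.1 enters with both its sense and its either-strand counts. With DESeq2 size factors this comparison called 0 either-strand and 1 sense transcript, and with the replicate block 1 and 14. No alternatives are given for the sense counts of uc009vev.1. In this comparison 1.62% of 618 either-strand and 3.91% of 537 sense transcripts passed, all of them lower. The either-strand counts of uc009vev.1 (edgeR adjusted p = 0.103) and the antisense counts of uc012hdk.1 (edgeR adjusted p = 0.0826) missed it. The KO minus WT difference was −5.49 for the sense counts of uc009vev.1 (edgeR adjusted p = 0.0427), −5.90 for the sense counts of uc009vew.1 (edgeR adjusted p = 0.0427), −6.34 for its either-strand counts (edgeR adjusted p = 0.0423) and −7.62 for the either-strand counts of uc012hdk.1 (edgeR adjusted p = 0.0391), with the mean of WT recovery above and that of KO recovery below its unheated group for each. For uc009vfb.1 both WT recovery libraries lay above both WT noHS libraries and both KO recovery libraries below both KO noHS libraries. Other transcripts with this pattern were not counted. The fitted difference of uc009vfb.1 was −9.89 and rests on 1 count in KO recovery. It was not tested because the contrast took part in choosing the transcript.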

How the results depend on the processing

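The 29 tested contrasts of the 4 transcripts in the columns followed for them and 3 untested ones of uc009vfb.1 were recomputed under 19 or 20 alternatives. Of 624 values, 538 stayed the same. For tested contrasts that means direction and side of the threshold, and many of these were not called to begin with. For untested ones it means within the SE of the main value. Library omissions aside, contrasts called in the main fit passed under 3 of 8 alternatives for uc009vev.1. For uc009vew.1 they passed under 6, 6 and 3 of 7, and for uc012hdk.1 under 3 of 7. The cause was not tested where values changed. For uc009vev.1, KO recovery minus KO noHS passed the threshold with TMM (−4.87), mapped reads (−4.18), counts outside the 4 transcripts (−3.61), the DESeq2 Wald test (−4.55) and sense counts (−4.69), and was −4.74 to −4.32 without a replicate. KO recovery minus WT recovery failed with TMM (−4.47), DESeq2 size factors (−4.62), counts outside the 4 (−3.26), no filter (−4.31) and the replicate block (−4.31), and was −4.49 to −4.11 without a replicate. The difference of responses passed with the DESeq2 Wald test (−5.22) and sense counts (−5.49), and was −5.59 to −4.93 without a replicate. Its HS contrasts ran from −1.39 to 1.34 (WT HS minus noHS) and from −1.94 to 0.79 (KO minus WT in HS).

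For uc009vew.1, KO recovery minus KO noHS (−5.11) and minus WT recovery (−4.81) were both not called with no filter, where 10825 transcripts were tested. Without a replicate they were −5.30 to −4.88 and −4.92 to −4.71. The difference of responses failed with DESeq2 size factors (−5.73), counts outside the 4 (−3.53), no filter (−5.90) and the replicate block (−5.90), and was −6.21 to −5.64 without a replicate. KO HS minus KO noHS was 0.89 with counts outside the 4, and −0.92 to 0.24 without a replicate. KO minus WT in HS was −0.19 with DESeq2 size factors and −0.54 to 2.05 without a replicate, and WT HS minus noHS was −1.18 to 1.41.

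For uc012hdk.1, KO recovery minus KO noHS failed with TMM (−5.89), DESeq2 size factors (−5.92), no filter (−5.12) and the replicate block (−5.12), and was −5.31 to −4.90 without a replicate. KO recovery minus WT recovery passed with mapped reads (−4.52) and the DESeq2 Wald test (−4.82), and was −4.93 to −4.72 without a replicate. The difference of responses passed with the DESeq2 Wald test (−5.91), and was −6.21 to −5.65. KO minus WT in HS was −0.19 with TMM and −0.061 with DESeq2 size factors, and −0.56 to 2.04 without a replicate. Its HS contrasts were −1.18 to 1.42 in WT and −0.92 to 0.25 in KO. For uc009vfb.1, KO HS minus KO noHS passed with the DESeq2 Wald test (−3.37). Without a replicate WT HS minus noHS was −5.95 to −1.75 and passed in edgeR without WT recovery replicate 1 (adjusted p = 0.0384) or replicate 2 (adjusted p = 0.0422, range 0.0384 to 0.399 over 20 alternatives), KO minus WT in HS −0.28 to 3.92, KO recovery minus KO noHS −11.15 to −7.96, minus WT recovery −11.07 to −7.71, and the difference of responses −12.40 to −9.04.

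No pairing by replicate number showed in 15 correlations of same-numbered deviations, which ran from −0.364 to 0.349, with 3 above 0.1. Depth did follow replicate number in the HS and recovery groups. There replicate 1 held 1778481 to 2084034 reads and replicate 2 held 679360 to 1117253. The replicate block also ended 4 calls outside the followed columns, those of the either-strand counts of uc009vew.1 in KO recovery minus KO noHS (−4.41) and in the difference of responses (−6.35), and of uc012hdk.1 in the latter (−7.66), and of uc009vev.1 antisense in WT HS (−4.19). Counts of transcripts called moved more. Under other scalings and tests, KO recovery minus KO noHS called 17 either-strand transcripts (3 with the replicate block to 72 with TMM), 32 sense (22 to 216) and 16 antisense (7 to 28). KO recovery minus WT recovery called 33 (6 to 85), 49 (32 to 204) and 7 (7 to 12), and the difference of responses 10 (0 to 37), 21 (1 to 57) and 8 (6 to 11). WT HS minus WT noHS, with 0 called, reached 62 either-strand and 110 sense transcripts. Leaving out 1 library gave 0 to 120 either-strand and 0 to 156 sense calls in KO recovery minus KO noHS, and 0 to 249 and 0 to 338 in KO recovery minus WT recovery, with 0 without either KO recovery library and the most without WT recovery replicate 1. That omission took WT HS minus WT noHS to 180 and 273, and omission of WT recovery replicate 2 took it to 167 and 267. Assigned either-strand counts, from 8569 to 182409 per library, limit the precision.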
